A study of Bos taurus with 14 samples.

Results

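The comparison described here is the difference between bovine granulocytes and bovine endometrial stromal cells (BES) in their response to interferon tau (IFNT). It was computed over all 14 arrays of the series, as the IFNT minus PBS change in granulocytes less the IFNT minus PBS change in BES. Of 15208 non-control probes, 9813 entered the comparison. Each was well above background on at least 1 array of every group and was not saturated on all arrays of any group. These probes carried 4712 of the 6712 genes with a symbol on the array, and each gene was represented by its kept probe with the highest mean level.

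The arrays fell into 4 groups: BES with phosphate-buffered saline (PBS, n = 3), BES with IFNT (n = 3), granulocytes with PBS (n = 4) and granulocytes with IFNT (n = 4). All cells were Bos taurus and were incubated for 2 h, with IFNT at 1 mg/mL as labelled, a dose unit that could not be checked here. BES are labelled as an in vitro study and granulocytes as in vivo and in vitro. No age, breed, pregnancy state or number of animals is given, so p-values measure the spread between these samples, which may be technical. RNA extraction is described for granulocytes alone.

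IFNT is a type I interferon made by the trophectoderm of ruminant embryos, and it signals pregnancy to the mother. Type I interferons bind the receptor chains IFNAR1 and IFNAR2, and the activated complex of STAT proteins and IRF9 turns on interferon-stimulated genes, many of which block viral replication. The endometrium meets IFNT directly, while blood leukocytes meet what leaves the uterus, and interferon-stimulated genes in leukocytes are used as a sign of early pregnancy in cattle.

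A level below is the log2 processed signal of a probe minus the 75th percentile (log2) of its array, so 0 is the 75th percentile. A response is the mean IFNT level minus the mean PBS level in 1 cell type. A difference is the granulocyte response minus the BES response. A negative difference therefore means a lower response in granulocytes, and 1 unit is a factor of 2. Errors after ± are standard errors of the limma fit unless SD is named, and a difference was called at an adjusted p under 0.05 (limma, Benjamini-Hochberg over the 9813 probes, two-sided).

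Names on this array come from accessions, gene numbers, symbols or descriptions of similarity. The probe stretches of the 3 genes with the largest differences in each direction are therefore shown, as bases 1 to 30 of each 60-base probe, from the deposited scanner files, so that their identity can be checked.
MX1: ccccatgttttaggaacatgagtgccatac
XAF1: ccaacccagcctggacaccttgggaaatcc
PARP9: gggtggatagataccaactaaaacactttc
CXCL10: actgccacccctccaaggggcccatattct
DECR2: cagtttctagagttttgccagaaaatgcat
ADM: agtgtgtgcgtgaaagagatgagttgcctc
XAF1, PARP9 and CXCL10 are described in the files as similar to the human genes, and the other 3 by their own names.

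All BES arrays shared 1 slide and 1 scan and all granulocyte arrays another, so cell type and slide cannot be told apart in any level. A constant slide effect on the log2 scale cancels in a difference. On the granulocyte slide the PBS arrays filled row 1 and the IFNT arrays row 2, so treatment and row cannot be told apart there. Without BES PBS replicate 3, the only PBS array in row 2, both slides had the same layout and 3070 probes were called. BES arrays detected 71.6% to 76.1% of probes above background and granulocyte arrays 66.4% to 70.9%. The median SD of a probe within a group was 0.064 to 0.11. All 14 measured stromal markers were above background on every BES array and all 16 measured neutrophil markers on every granulocyte array. Epithelial markers were also present in BES (10 of 12 on every array), with KRT8 at a mean level of 7.19 and CDH1 at 3.50 under PBS. EPCAM and FOXA2 were above background on no BES array. Markers of monocytes (8 of 9), of T and NK cells (15 of 19) and of B cells (5 of 6) were above background on every granulocyte array. So were 6 of 14 stromal and 6 of 12 epithelial markers. On every BES array 8 of 16 neutrophil, 6 of 9 monocyte, 5 of 19 T and NK cell and 3 of 6 B cell markers were above background. Some markers of each of these lists were thus above background in both cell types, but the stromal and neutrophil counts differed. The scaled signal summed over the 16 neutrophil markers was 874 to 1083 in granulocytes with PBS and 893 to 975 with IFNT. In BES that sum was 1.95 to 2.16 with PBS and 1.77 to 2.07 with IFNT.

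The responses of the cell types differed at many probes. Of the 9813 probes, 3253 were called for a difference, or 33.1%, with 1865 lower in granulocytes (19.0%) and 1388 higher (14.1%). Among the 1865 were 98 of the 102 kept probes of 1 gene, GAPDH. The called differences had a median absolute value of 0.45 (log2), and 96 probes were lower and 301 higher by at least 1. Over genes, 1524 of 4712 were called, 802 lower (17.0%) and 722 higher (15.3%), and the median difference over all genes was −0.0092. These gene shares are the background for the counts of each gene list. In the same fit 289 probes rose with IFNT in BES (2.95%) and 232 fell (2.36%), while in granulocytes 1776 rose (18.1%) and 2990 fell (30.5%). The BES falls rested on few samples: without 1 of the 6 BES arrays at a time they numbered 56 (without BES PBS replicate 2) to 350 (without BES PBS replicate 3). With array row as a covariate, 143 probes rose and 29 fell in BES, and 955 rose and 1260 fell in granulocytes. Row and treatment coincide on the granulocyte slide, so the row term in that fit rests on BES PBS replicate 3 alone.

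Most called differences came from a change in granulocytes without a called change in BES. Of the 802 genes with a lower response in granulocytes, 719 fell in granulocytes with no call in BES, and 18 rose in both cell types. Of the 722 genes with a higher response in granulocytes, 558 rose in granulocytes with no call in BES, and 52 rose in both. In all, 95 genes rose in both cell types, and 25 of them had no called difference.

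**Figure D1:**
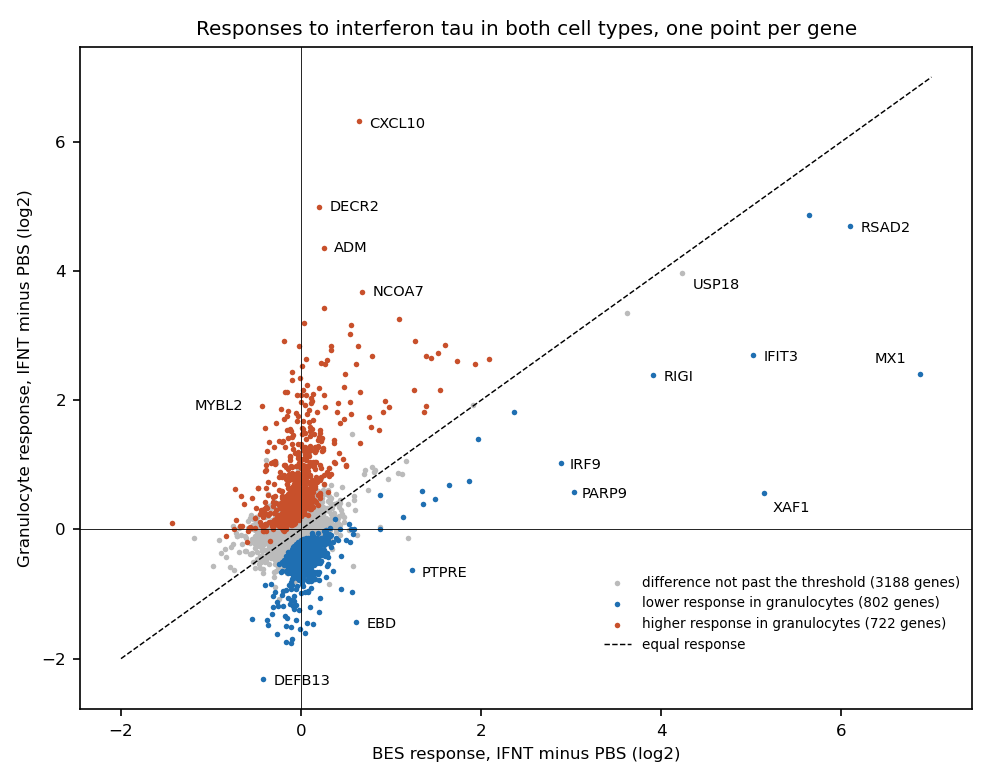
Each point is 1 of 4712 genes, with its BES response on the x axis and its granulocyte response on the y axis (log2, IFNT minus PBS); blue and red mark called differences and the dashed line marks equal responses. MX1, XAF1 and RSAD2 lie far to the right below the line, CXCL10, DECR2 and ADM lie high on the left, and USP18 lies near the line.

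The genes listed as interferon-induced antiviral effectors split into 2 directions. This list also holds genes with other known roles, such as the pro-apoptotic XAF1 and the complement inhibitor SERPING1. Of 26 kept members, 10 had a lower response in granulocytes, 11 a higher one and 5 no called difference, or 38.5% lower and 42.3% higher beside 17.0% and 15.3% of all genes. The list's median difference was 0.11, against −0.0092 for all genes, and its members ranged from −4.58 to 2.999. In BES 17 of the 26 rose and in granulocytes 24 rose, and none fell in either. Granulocytes had the higher PBS level for 23 of the 26 genes, and for 19 the granulocyte PBS level was above the BES level after IFNT. Over all 4712 genes these counts were 2339 and 2367.

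XAF1, a pro-apoptotic partner of the caspase inhibitor XIAP, had the most negative difference at the main setting. Its levels were −7.08, −7.64 and −7.19 on the BES PBS arrays and −2.05, −2.18 and −2.25 with IFNT, against 6.09, 6.17, 6.17 and 6.08 and 6.73, 6.68, 6.72 and 6.64 in granulocytes. The 4 groups did not overlap, and every granulocyte PBS array stood above every BES IFNT array. The response was 5.14 ± 0.11 in BES and 0.56 ± 0.096 in granulocytes, a difference of −4.58 ± 0.15, adjusted p 1.8e-10. XAF1 was well above background on 2 of 3 BES PBS arrays, and with normexp background correction its difference was −2.51, smaller in size than that of MX1 (−3.81).

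MX1, a GTPase that traps viral nucleocapsids, followed the same order. Its levels were −4.48, −4.70 and −4.75 in BES with PBS and 2.30, 2.22 and 2.18 with IFNT, then 5.06, 5.02, 4.87 and 5.03 in granulocytes with PBS and 7.47, 7.36, 7.39 and 7.40 with IFNT. MX1 rose 117-fold in BES and 5.31-fold in granulocytes, a difference of −4.47 ± 0.097, adjusted p 4.0e-12. Its relative MX2 went the other way: it rose by 2.12 ± 0.15 in granulocytes, while its BES response of 0.65 ± 0.18 did not pass the threshold, a difference of 1.47 ± 0.24, adjusted p 3.9e-04. The MX1 and MX2 probes shared no run longer than 6 bases.

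PARP9, an ADP-ribosyltransferase partner that aids interferon signalling, stood at −3.42, −3.42 and −3.43 in BES with PBS and at −0.34, −0.44 and −0.42 with IFNT. In granulocytes it stood at 2.38, 2.43, 2.47 and 2.40 with PBS and at 2.999, 2.99, 3.02 and 2.98 with IFNT. No group overlapped another, and the difference was −2.45 ± 0.056, adjusted p 5.5e-12. IFIT3, which helps IFIT1 bind foreign RNA, rose from −4.92, −4.97 and −5.09 to 0.19, 0.054 and −0.15 in BES and from 4.997, 4.94, 4.83 and 4.99 to 7.55, 7.72, 7.62 and 7.66 in granulocytes, a difference of −2.32 ± 0.11, adjusted p 5.7e-09.

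The other 6 effectors with a lower response in granulocytes rose in both cell types. RSAD2, the radical enzyme viperin, rose by 6.10 in BES and 4.70 in granulocytes (difference −1.40 ± 0.20). RTP4 rose by 5.64 and 4.87 (difference −0.77 ± 0.089), and TRIM21, a cytosolic antibody receptor, by 2.36 and 1.82 (difference −0.55 ± 0.17). SHFL (−0.96), the membrane protein IFITM1 (−0.75) and PARP12 (−0.57) completed this group. All 10 had the higher PBS level in granulocytes and the higher IFNT level too: the median gap in level (granulocytes minus BES) was 5.71 under PBS and 4.49 under IFNT. This narrowing is no separate result, because the IFNT gap less the PBS gap of a gene is its difference. For the 11 effectors with a higher response in granulocytes the median gap was 2.13 under PBS and 3.73 under IFNT.

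The 11 effectors with a higher response in granulocytes were led by NCOA7, an interferon-induced inhibitor of virus entry. NCOA7 levels were 0.32, 0.34 and 0.35 in BES with PBS and 1.05, 0.97 and 1.03 with IFNT, against 1.44, 1.43, 1.52 and 1.50 and 5.16, 5.17, 5.18 and 5.10 in granulocytes. The response was 0.68 ± 0.043 in BES and 3.68 ± 0.037 in granulocytes, a difference of 2.999 ± 0.057, adjusted p 2.0e-12. The helicase MOV10 rose by 0.33 in BES and by 2.78 in granulocytes (difference 2.45 ± 0.076). UBA7, the enzyme that activates ISG15 for conjugation, had a BES response of −0.0029 that was not called and rose by 2.08 in granulocytes (difference 2.08 ± 0.19).

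PML, the scaffold of nuclear bodies, rose by 1.26 in BES and 2.91 in granulocytes (difference 1.65 ± 0.071), and SP110 by 1.73 and 2.60 (difference 0.86 ± 0.095). NMI had a difference of 1.02 ± 0.07, and IFIT5, an RNA-binding relative of IFIT3, of 0.56 ± 0.062. The sterol hydroxylase CH25H (0.98), the complement inhibitor SERPING1 (0.88) and LY6E (0.41) were the remaining 3 beside MX2. Of these 11, 9 had the higher PBS level in granulocytes.

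The kinase EIF2AK2, which halts translation on double-stranded RNA, had responses of 1.91 ± 0.085 in BES and 1.93 ± 0.074 in granulocytes, a difference of 0.018 ± 0.11, adjusted p 0.927. The other members with no called difference were C1R (−0.017), SAMHD1 (0.0015), PHF11 (0.20) and STING1 (0.30). A p that misses the threshold does not show equal responses.

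**Figure D2:**
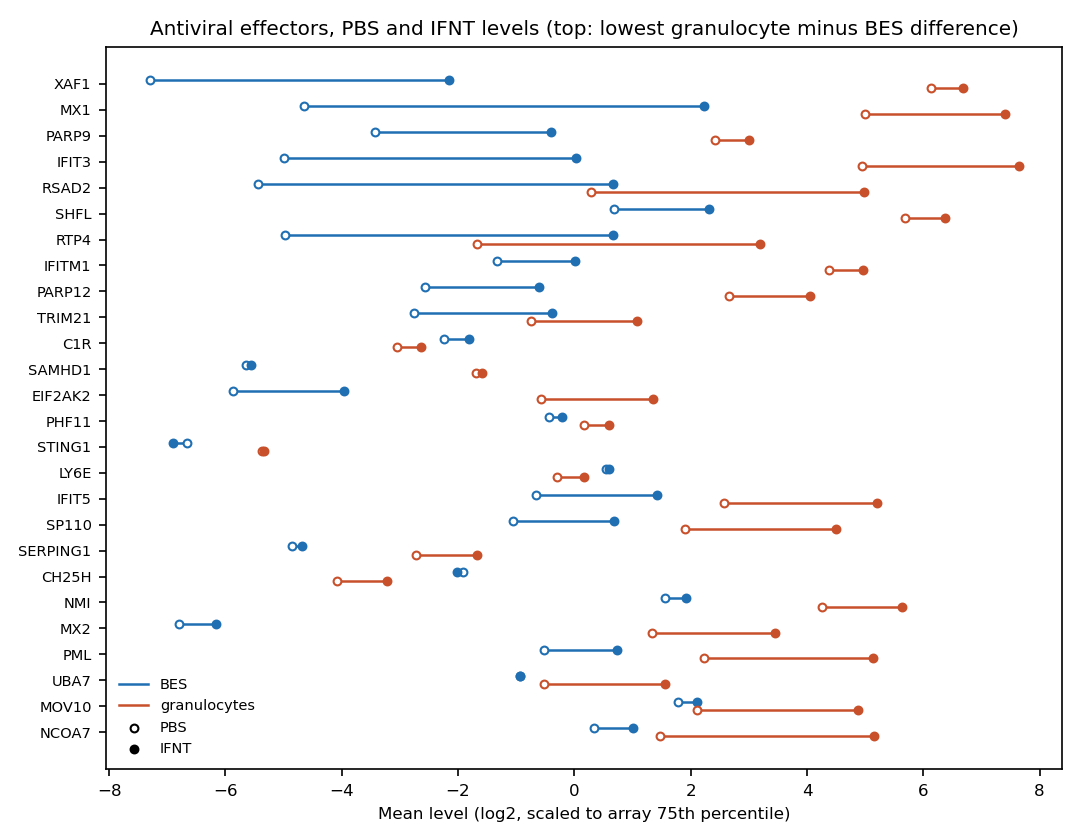
Mean levels (log2, scaled to the array's 75th percentile) of the 26 kept antiviral effectors under PBS (open) and IFNT (filled) in BES (blue) and granulocytes (red), ordered from the most negative difference at the top. From XAF1 to IFIT3 the red segments lie wholly to the right of the blue ones, and towards NCOA7 the red segments become longer than the blue.

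Among 10 interferon receptor and JAK-STAT genes, 4 had a lower response in granulocytes (40%) and 1 a higher one (10%), with a median difference of −0.23. IRF9, the DNA-binding part of the STAT complex, stood at −0.39, −0.28 and −0.31 in BES with PBS and 2.63, 2.54 and 2.51 with IFNT. In granulocytes it was 5.69, 5.63, 5.55 and 5.70 with PBS and 6.77, 6.67, 6.62 and 6.65 with IFNT, so it started above the induced BES level. The difference was −1.86 ± 0.076, adjusted p 1.6e-09.

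Among the receptor chains, 3 had a lower response in granulocytes. IFNAR2, a chain of the receptor that IFNT itself binds, stood at −0.37, −0.35 and −0.30 in BES with PBS and −0.11, −0.17 and −0.18 with IFNT. In granulocytes it was 6.81, 6.77, 6.78 and 6.77 with PBS and 6.27, 6.36, 6.42 and 6.35 with IFNT, so it rose by 0.19 in BES and fell by 0.43 in granulocytes. Both calls held together under 18 of 28 alternative settings. The difference was −0.63 ± 0.061, adjusted p 5.6e-06. IFNGR1, a chain of the interferon gamma receptor, differed by −0.63 ± 0.078 and IL10RB by −0.57 ± 0.10, each with a fall in granulocytes and no called change in BES. IFNAR1, with a difference of −0.23 ± 0.17, was not called (adjusted p 0.343).

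The list of interferon regulatory factors, transcription factors of interferon and its target genes, had 4 kept members. All 4 had positive differences, of which 3 were called (75%). IRF9, counted above with the JAK-STAT genes, went the other way (−1.86). IRF3, the factor activated by virus sensors, rose by 0.61 ± 0.11 in BES and by 2.56 ± 0.095 in granulocytes (difference 1.95 ± 0.14, adjusted p 4.6e-07). Its levels were −2.07, −2.05, −1.99 and −1.91 in granulocytes with PBS and 0.60, 0.62, 0.30 and 0.70 with IFNT, and −2.87, −2.66 and −2.83 and −2.14, −2.01 and −2.39 in BES. IRF1 differed by 0.52 ± 0.16, adjusted p 0.0236, a call that was lost without BES PBS replicate 1, BES PBS replicate 2 or BES IFNT replicate 2, and with normexp its difference was 0.88. IRF5, known from myeloid cells, differed by 0.47 ± 0.072, adjusted p 2.9e-04, and IRF2, at 0.33 ± 0.24, was not called (adjusted p 0.324).

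Of 16 sensors of nucleic acids and microbial patterns, 2 had a lower response in granulocytes (12.5%) and 4 a higher one (25%), shares near those of all genes. RIGI, a cytosolic sensor of viral RNA, rose from −2.91, −2.84 and −2.76 to 1.17, 1.01 and 1.04 in BES and from 2.81, 2.91, 2.89 and 2.74 to 5.33, 5.09, 5.24 and 5.22 in granulocytes, a difference of −1.52 ± 0.094, adjusted p 7.4e-08. DHX58, its regulatory relative, rose by 3.62 and 3.34, and the difference of −0.27 ± 0.16 was not called (adjusted p 0.216). TLR3, an endosomal sensor of double-stranded RNA, rose by 0.56 in BES and had no called response in granulocytes (difference −0.56 ± 0.15).

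TLR4, the receptor for bacterial endotoxin, differed the other way. It stood at 3.75, 3.73, 3.68 and 3.78 in granulocytes with PBS and 5.56, 5.55, 5.57 and 5.66 with IFNT, and at −4.43, −4.17 and −3.98 and −3.96, −4.12 and −4.25 in BES, a difference of 1.77 ± 0.13, adjusted p 3.0e-07. CD14, the co-receptor that hands endotoxin to TLR4, differed by 1.05 ± 0.13, the DNA exonuclease TREX1 by 1.21 ± 0.062 and NOD2 by 0.59 ± 0.11.

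Of 10 kept feedback inhibitors of cytokine signalling, 2 had a lower response in granulocytes (20%) and 4 a higher one (40%). USP18, which removes ISG15 and blocks the interferon receptor, stood at −2.59, −2.47 and −2.65 in BES with PBS and 1.84, 1.59 and 1.57 with IFNT. In granulocytes it stood at 2.18, 2.15, 2.10 and 1.86 with PBS and 6.10, 5.93, 5.99 and 6.18 with IFNT. The responses of 4.23 ± 0.099 and 3.98 ± 0.085 differed by −0.26 ± 0.13, which was not called (adjusted p 0.154). With quantile normalization the USP18 difference was −0.75 and was called, and it was called without granulocyte PBS replicate 4.

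Of the SOCS family, 3 members had the higher response in granulocytes, CISH by 1.58 ± 0.13, SOCS2 by 1.32 ± 0.11 and SOCS3 by 0.59 ± 0.17, while SOCS4 had a lower one, by −0.30 ± 0.11. DUSP10, a phosphatase of stress kinases, had a higher one, by 0.33 ± 0.068. DUSP6, the phosphatase that switches off ERK, rose from 1.18, 1.06 and 1.05 to 1.50, 1.54 and 1.59 in BES. In granulocytes DUSP6 fell from 5.36, 5.22, 5.11 and 5.18 to 4.35, 4.28, 4.26 and 4.27, a difference of −1.37 ± 0.083, adjusted p 6.2e-08.

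**Figure D3:**
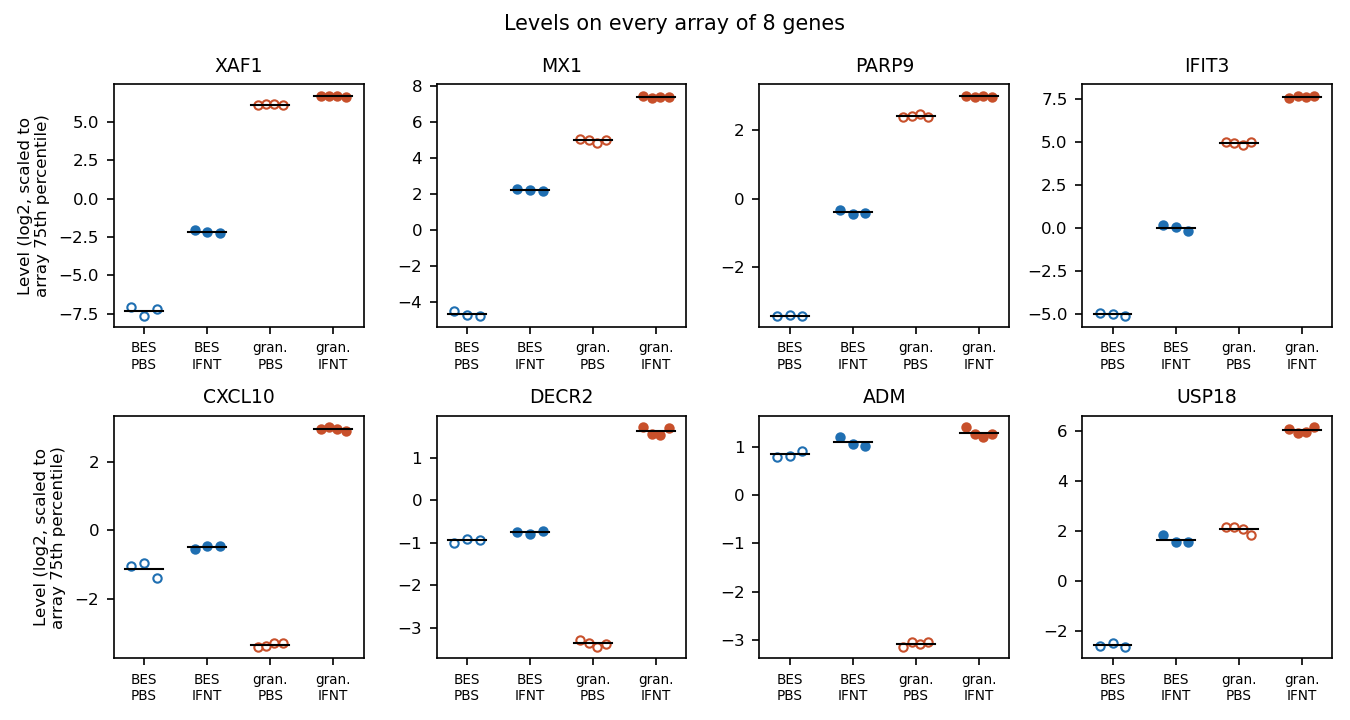
Levels on every array (log2, scaled to the array's 75th percentile) of 8 genes in BES (blue, n = 3 per group) and granulocytes (red, n = 4 per group), with PBS open, IFNT filled and the group mean as a bar; each panel has its own y axis. The PBS arrays of granulocytes lie above the IFNT arrays of BES for XAF1, MX1, PARP9 and IFIT3, and below every BES array for CXCL10, DECR2 and ADM.

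Chemokine ligands, the secreted attractants of leukocytes, differed in both directions: of 16 kept, 7 had a lower response in granulocytes (43.8%) and 4 a higher one (25%), with a median difference of −0.44. CXCL10, which attracts T and NK cells, had the largest positive difference among the 4712 genes. It stood at −1.04, −0.95 and −1.41 in BES with PBS and −0.56, −0.45 and −0.45 with IFNT, and went from −3.43, −3.38, −3.30 and −3.30 to 2.96, 3.02, 2.95 and 2.92 in granulocytes. Granulocytes with PBS lay below every BES array and granulocytes with IFNT above every other array. CXCL10 rose 1.56-fold in BES and 79.6-fold in granulocytes, a difference of 5.67 ± 0.12, adjusted p 4.0e-12.

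The monocyte attractants CCL2 (1.23 ± 0.18), CCL4 (1.12 ± 0.12) and CCL3 (0.38 ± 0.12) also had higher responses in granulocytes. Those of the ligands of CXCR2, which draw neutrophils, were lower: CXCL3 by −1.21 ± 0.11, GRO1 by −1.02 ± 0.12, CXCL2 by −0.97 ± 0.11, CXCL8 by −0.84 ± 0.14 and CXCL5 by −0.67 ± 0.08. CXCL3, for example, fell from 2.35, 2.32, 2.45 and 2.17 to 1.07, 0.79, 1.01 and 0.93 in granulocytes and went from −0.17, −0.016 and −0.13 to −0.31, −0.28 and −0.20 in BES. The CXCL3 and GRO1 probes share a run of 25 bases, and the CXCL2 probe shares a run of 12 with each. Cross-hybridisation among them was not tested. CCL24, an eosinophil attractant (−1.36 ± 0.16), and CCL5 (−0.58 ± 0.14) were the remaining 2.

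The summed signal of the 9 measured monocyte markers, as multiples of the array's 75th percentile, was 29.4 to 32.0 in granulocytes with PBS and 27.8 to 28.8 with IFNT. The ranges of that sum did not overlap. Its members did not move together: of the 6 kept, CD68 (by 0.36) and CD36 (by 1.40) fell in granulocytes, while CD14 and MRC1 rose by 1.03 and 0.60. CD68 had the highest level of these, 4.67 with PBS. The sum of the 2 measured eosinophil markers, CCR3 and ALOX15, was 13.7 to 14.5 with PBS and 10.6 to 12.1 with IFNT, again without overlap. The part of both in these results was not tested. For the 19 T and NK cell markers the sums were 17.4 to 19.4 and 18.2 to 19.0. In bulk RNA a change in the number of cells of a type and a change in RNA per cell cannot be told apart.

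Of 10 interleukins, TNF family members and colony-stimulating factors, 1 had a lower response in granulocytes (10%) and 5 a higher one (50%). CSF1, the growth factor of macrophages, rose by 3.03 in granulocytes and had a BES response of 0.54 that was not called (difference 2.48 ± 0.29, adjusted p 2.9e-05). It was above background on 1 of 4 granulocyte PBS arrays, and with normexp its difference was 1.05. IL10, an anti-inflammatory cytokine, was the 1 with a lower response: it fell from 1.54, 1.63, 1.62 and 1.74 to 0.48, 0.60, 0.44 and 0.37 in granulocytes (difference −1.04 ± 0.099, adjusted p 4.2e-06). INHBA (0.74 ± 0.10), TNFSF13 (0.57 ± 0.15), IL1A (0.37 ± 0.13) and IL18 (0.36 ± 0.12) were higher, though IL18 lost its call under several alternatives, median scaling among them.

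Of 16 cytokine receptors, 7 had a lower (43.8%) and 4 a higher (25%) response in granulocytes. TNFRSF1B (−0.89 ± 0.19), IL1RAP (−0.81 ± 0.059) and IL2RG (−0.63 ± 0.16) had the most negative differences. OSMR, the receptor of oncostatin M, rose by 0.97 in BES and 1.90 in granulocytes (difference 0.93 ± 0.082, or 0.61 with quantile normalization).

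Among 10 NF-kB subunits and regulators, 5 had a lower response in granulocytes (50%) and 1 a higher one (10%). The inhibitor NFKBIB (−0.67 ± 0.088), the A20 partner TNIP1 (−0.65 ± 0.079) and the adaptor TRAF6 (−0.51 ± 0.063) fell in granulocytes with no called change in BES. NFKBIZ had the 1 higher response (0.19 ± 0.064).

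Among 13 genes of antigen presentation by MHC class I, 5 had a higher response in granulocytes (38.5%) and 1 a lower one (7.69%), with a median difference of 0.27. The 5 were the proteasome activators PSME2 (0.68 ± 0.094) and PSME1 (0.46 ± 0.058), the immunoproteasome subunits PSMB8 (0.59 ± 0.12) and PSMB9 (0.52 ± 0.16), and the peptide loader TAPBP (0.41 ± 0.11). PSME2 lost its call with quantile normalization, where its difference was 0.23. B2M, the light chain of class I, rose by 0.53 in BES, and its granulocyte response of 0.087 was not called (difference −0.44 ± 0.081, or −0.76 with quantile normalization). The granulocyte level of B2M was already 8.09 under PBS, against 3.30 in BES. Of 7 kept class II genes, RFX5, a class II transcription factor (1.43 ± 0.071), BOLA-DMA (0.67 ± 0.16) and CTSS (0.35 ± 0.08) were higher and LGMN (−0.46 ± 0.067) was lower. The class II shares were 42.9% higher and 14.3% lower.

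**Figure D4:**
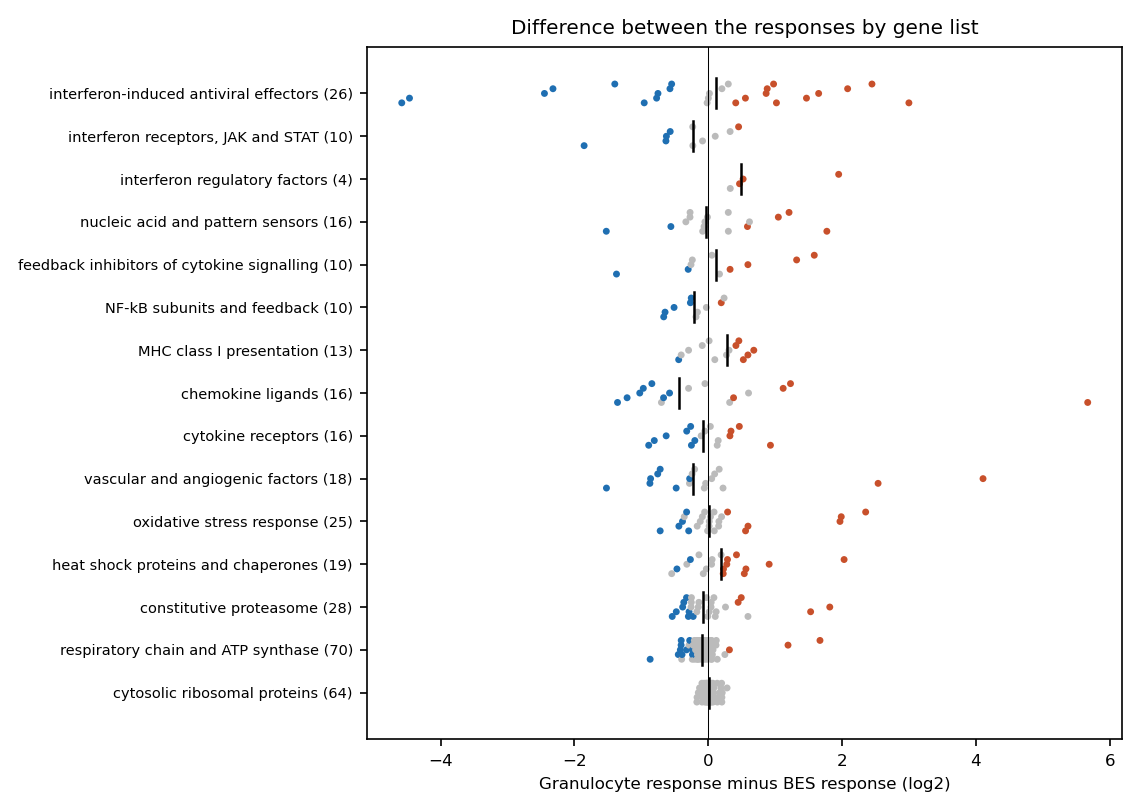
Differences between the responses (granulocyte minus BES, log2) of the kept members of 15 gene lists, with blue and red for called differences, grey for the rest and a bar at each list's median; the number kept stands after each name. The antiviral effectors span from −4.58 to 3.00 around a median of 0.11, and the 64 ribosomal proteins hold no called difference.

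In 30 genes the 2 cell types had called responses of opposite sign. All 30 differences were called, which is no separate result, because responses of opposite sign add up in the difference. The 18 that rose in BES and fell in granulocytes had a median difference of −0.61. PTPRE, a tyrosine phosphatase, rose from −3.87, −4.23 and −4.01 to −2.60, −2.98 and −2.86 in BES and fell from 1.11, 1.12, 1.15 and 0.84 to 0.54, 0.27, 0.37 and 0.49 in granulocytes, a difference of −1.86 ± 0.16, adjusted p 1.6e-06. FOS, an immediate-early transcription factor, rose by 0.54 in BES and fell by 0.19 in granulocytes. BIRC3, an inhibitor of apoptosis, rose by 0.28 and fell by 0.38. CDKN2D (−0.85), MAP3K2 (−0.68), LNX1 (−0.66) and the defensin EBD (−2.04) also went this way.

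The other 12 fell in BES and rose in granulocytes, with a median difference of 0.76. MYBL2, a transcription factor of dividing cells, stood at −1.70, −1.44 and −1.74 in BES with PBS and −2.10, −1.86 and −2.23 with IFNT, then at −3.64, −3.86, −3.73 and −3.52 and −1.75, −1.76, −1.88 and −1.70 in granulocytes (difference 2.35 ± 0.14, adjusted p 6.7e-08). DEXI (1.37 ± 0.17), AMIGO2 (1.30 ± 0.12), MRGPRF (1.12 ± 0.11), PCF11 (1.03 ± 0.14) and the glycolytic enzyme PFKL (0.80 ± 0.099) followed. With normexp the differences were 0.67 for PCF11, 0.69 for MRGPRF and −0.42 for LNX1. The number of genes with opposite calls was 2 with array row as a covariate (both from the 30), and 11 (without BES PBS replicate 2) to 47 (without BES PBS replicate 3) without 1 array at a time. DUSP6 and PTPRE kept opposite calls under each of the 28 alternative settings run, IFNAR2 under 18, EBD under 14, PFKL under 12 and PCF11 under 7.

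**Figure D5:**
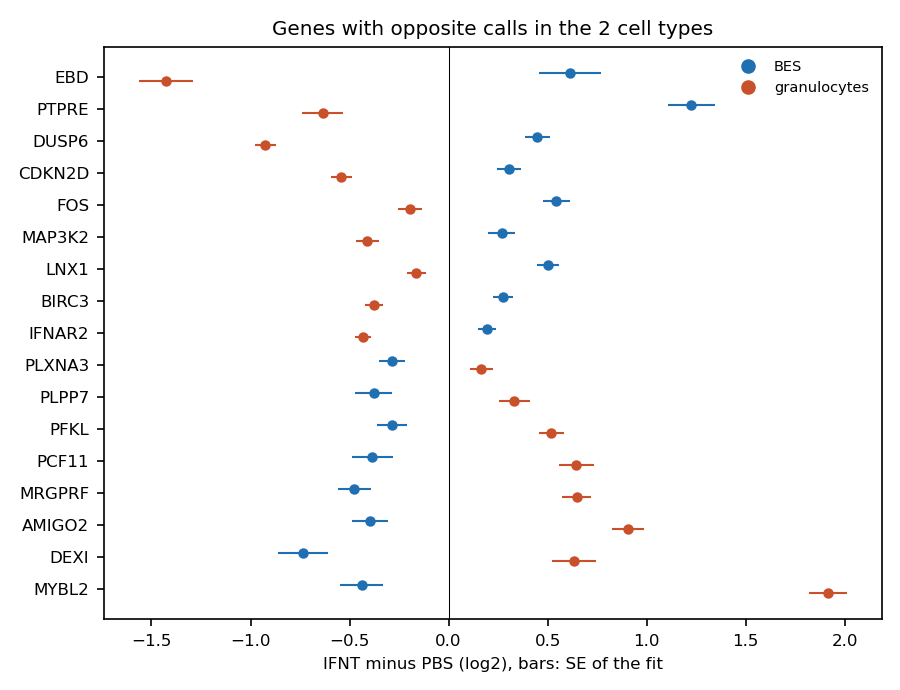
Responses (IFNT minus PBS, log2) of the genes named for opposite calls, in BES (blue) and granulocytes (red), with standard errors of the fit as bars. The upper 9 genes lie right of 0 in BES and left of 0 in granulocytes, and the lower 8 the other way, up to 1.91 for MYBL2 in granulocytes.

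Several of the largest positive differences were in genes outside the interferon lists. DECR2, a peroxisomal enzyme of fatty acid oxidation, stood at −1.001, −0.90 and −0.94 in BES with PBS and −0.74, −0.79 and −0.72 with IFNT. In granulocytes it went from −3.28, −3.36, −3.46 and −3.37 to 1.72, 1.54, 1.53 and 1.69, a 31.8-fold rise and a difference of 4.79 ± 0.083, adjusted p 1.2e-12. GDAP2 (3.16 ± 0.08), ZNF503 (3.10 ± 0.36), ADRB3 (2.86 ± 0.31), IQCD (2.61 ± 0.088), the ubiquitin ligase RNF8 (2.58 ± 0.069) and the nuclear envelope phosphatase subunit CNEP1R1 (2.52 ± 0.085) were among the 12 largest, with ZNF503 above background on 2 of 4 granulocyte PBS arrays and at 1.44 with normexp. AXL, a receptor tyrosine kinase that dampens innate responses, rose by 3.20 in granulocytes and had a BES response of 0.031 that was not called, at a far higher BES level (2.79 with PBS, against −5.44 in granulocytes). AXL has 2 kept probes, both called, and their differences were 0.29 and 3.17. Its difference was 1.73 with normexp and, at 2 decimals, also as the mean of its probes.

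Of 18 vascular and angiogenic factors, 7 had a lower response in granulocytes (38.9%) and 2 a higher one (11.1%). ADM, the vasodilator adrenomedullin, stood at 0.79, 0.81 and 0.92 in BES with PBS and 1.20, 1.06 and 1.02 with IFNT. In granulocytes it rose from −3.15, −3.04, −3.09 and −3.04 to 1.41, 1.26, 1.19 and 1.26, so that the mean with IFNT was 1.28 in granulocytes and 1.09 in BES. The difference was 4.11 ± 0.087, adjusted p 4.0e-12. EDN1, the precursor of the vasoconstrictor endothelin, differed by 2.54 ± 0.48, adjusted p 0.00139, and was above background on 3 of 4 granulocyte PBS arrays. With normexp the differences were 1.38 for EDN1 and −0.72 for FLT1. The VEGF receptor FLT1 (−1.52 ± 0.12), VEGFA (−0.87 ± 0.068), THBS1 (−0.86 ± 0.11), PLAUR (−0.76 ± 0.11), PLAU (−0.48 ± 0.08) and VEGFB (−0.28 ± 0.06) were among the lower, each with a fall in granulocytes and no called change in BES. THBD, the anticoagulant thrombomodulin, fell from 5.74, 5.67, 5.70 and 5.68 to 3.94, 4.04, 3.99 and 4.04 in granulocytes (difference −1.59 ± 0.091, adjusted p 3.7e-08).

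Prostaglandin genes matter in the uterus, where prostaglandins set the life of the corpus luteum. Of 16 kept, 4 had a lower response in granulocytes (25%) and 1 a higher one (6.25%). PTGS2, the inducible cyclooxygenase, stood at −2.02, −1.84 and −2.05 in BES with PBS and −2.05, −1.96 and −1.77 with IFNT. In granulocytes it fell from 0.98, 1.07, 1.13 and 1.002 to −0.57, −0.62, −0.53 and −0.52, a difference of −1.65 ± 0.10, adjusted p 6.3e-08. PTGES, a prostaglandin E synthase (−0.87 ± 0.071), HPGD, which breaks prostaglandins down (−0.48 ± 0.12), and the lipoxygenase ALOX15 (−0.33 ± 0.082) were lower too, and PTGES2 was higher (1.38 ± 0.22). ALOX15 lost its call with normexp background correction, where its difference was −0.13 and that of PTGES2 was 0.63.

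Genes of granulocyte function went both ways. Of 9 neutrophil granule proteins 1 was lower (11.1%) and 2 higher (22.2%). Of 15 granulocyte receptors and adhesion genes 3 were lower (20%) and 5 higher (33.3%). Beside these stand 17.0% lower and 15.3% higher of all genes, and the granule protein counts are near those shares. Both kept beta-defensins were lower. DEFB13, an antimicrobial beta-defensin, fell from 1.82, 1.81, 2.09 and 1.75 to −0.55, −0.47, −0.33 and −0.44 in granulocytes and went from −6.70, −6.41 and −6.79 to −6.97, −6.93 and −7.27 in BES (difference −1.89 ± 0.16, adjusted p 1.3e-06). The defensin probes of EBD and DEFB13 share no run over 6 bases. MEFV, the inflammasome protein pyrin, fell from 7.16, 7.15, 7.16 and 7.17 to 5.41, 5.37, 5.34 and 5.47 in granulocytes (difference −1.65 ± 0.085, adjusted p 1.3e-08). GPR84, a receptor for medium-chain fatty acids, differed by −1.60 ± 0.26, adjusted p 4.4e-04. Higher responses were seen for the cathelicidin CATHL6 (1.33 ± 0.08), lactoferrin LTF (1.17 ± 0.16) and CYBB, the catalytic subunit of the NADPH oxidase (1.002 ± 0.17).

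Of 25 oxidative stress genes, 5 had a lower response in granulocytes (20%) and 6 a higher one (24%), near the shares of all genes, with a median difference of 0.015. GCLM, a subunit of the enzyme that makes glutathione (2.35 ± 0.17, adjusted p 3.5e-07), the haem-degrading enzyme HMOX1 (1.99 ± 0.22, adjusted p 1.8e-05) and the transcription factor MAFF (1.97 ± 0.097, adjusted p 9.4e-09) had the largest differences. HMOX1 rose from 2.19, 2.07, 1.70 and 2.30 to 4.37, 4.53, 4.22 and 3.87 in granulocytes, with no overlap, and stood at 3.05, 2.73 and 2.99 and 3.18, 3.06 and 3.11 in BES. Of 19 heat shock proteins and chaperones, 2 were lower (10.5%) and 9 higher (47.4%), led by BAG1 (2.03 ± 0.10) and DNAJB4 (0.91 ± 0.10). DNAJB4 lost its call with normexp background correction, where its difference was 0.33. XBP1, a transcription factor of the unfolded protein response, differed by 1.18 ± 0.052, adjusted p 3.1e-09.

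None of 64 cytosolic ribosomal proteins had a called difference in limma (their median was 0.011, and 0 to 3 were called higher and 0 to 1 lower under the alternative settings run). The number with an unadjusted p under 0.05 was 3. Of 70 genes of the respiratory chain and ATP synthase, 11 were lower (15.7%) and 3 higher (4.29%), with a median of −0.091. NDUFV3 (−0.87 ± 0.061) was the lowest, and UQCRC2 (1.67 ± 0.12) and NDUFB1 (1.19 ± 0.21) were among the higher. Of 28 constitutive proteasome subunits, 8 were lower (28.6%) and 4 higher (14.3%), with PSMA2 (1.82 ± 0.12) and PSMC3 (1.53 ± 0.076) far above the rest. GAPDH, a common reference gene, had a lower response in granulocytes at 98 of 102 probes, and the differences over all of them ran from −0.47 to −0.18.

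A few markers of cell types differed too. COL1A1, a collagen of stromal cells, rose by 1.42 in granulocytes from a mean level of −5.43 and had a BES response of −0.14 that was not called (difference 1.56 ± 0.12, adjusted p 8.7e-07, or 0.77 with normexp). The summed signal of the 14 measured stromal markers was 49.0 to 57.2 in granulocytes with PBS and 47.0 to 51.4 with IFNT, and 363 to 381 over the BES arrays. MUC1, a mucin of epithelia, differed by 2.50 ± 0.20, adjusted p 1.1e-06, was above background on 1 of 4 granulocyte PBS arrays, and had a difference of 0.83 with normexp. The scavenger receptor CD36 differed by −1.35 ± 0.22, adjusted p 4.7e-04, above background on 1 of 4 granulocyte IFNT arrays, and lost its call with normexp background correction (−0.34). Of 9 kept neutrophil markers, 2 had a lower response in granulocytes (22.2%), MMP9 (−0.50 ± 0.081) among them. A higher one was seen for 4 (44.4%), LTF and CATHL6 among them. The other 3 had no called difference, S100A8 (0.36 ± 0.31) and S100A12 (−0.16 ± 0.11) among them.

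The filter left out genes that were dark in a whole group, among them several of the best known interferon-stimulated genes. OAS1X, a synthase that activates RNase L, was not well above background on any BES PBS array and rose to at least 113-fold higher with IFNT, while in granulocytes it rose 5.53-fold. GBP4 and GBP5, guanylate-binding GTPases, were likewise dark in untreated BES, and their IFNT levels there were at least 27.3-fold and at least 6.06-fold higher. GBP4 went from a mean level of −0.72 to 2.98 in granulocytes and GBP5 from −2.65 to 2.07. The name GBP5 rests on a gene number, and the file describes the probe as guanylate-binding protein 2. CCL8, a monocyte attractant, was dark in untreated granulocytes and at least 664-fold higher after IFNT, and was not well above background in BES.

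A bound here sets the mean of the bright group against the lowest signal called above background on each array of the dim group, or the probe's own signal where higher. ISG15, the ubiquitin-like modifier, was the 1 probe left out for saturation alone: it went from −4.03 to 4.39 in BES and from 7.60 to at least 9.05 in granulocytes. In all, 12 of 15208 probes in BES and 36 in granulocytes were above background on every IFNT array and on no PBS array of that cell type, and 2 probes did so in both. The reverse, every PBS array and no IFNT array, held for 3 probes in BES and 9 in granulocytes. Of the named probes on with IFNT only and with a bound of at least 2-fold, 5 were in BES and 12 in granulocytes. The 5 in BES were OAS1X, GBP4, GBP5, TNFSF13B and OAS2.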

How the data were processed

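RNA of 14 samples was labelled with Cy3 and hybridised to 1-colour Agilent bovine arrays, and per the file headers signals were extracted with Feature Extraction 9.5.1.1. The deposited processed signal is an intensity that the software had already background-corrected, and the authors' deposited value table served as an alternative. Set against the scanner values, that deposited table holds log2 of the processed signal minus a constant per array, with column medians from −3.42 to −3.23. Levels were computed as log2 of the processed signal minus the log2 75th percentile of each array over non-control probes, and spots marked as outliers were left out. Probes not well above background on any array of a group, or saturated on all arrays of a group, were dropped. Group means were fitted over all 14 arrays with limma 3.58.1 in R 4.3.3, and the difference of the responses was tested as a contrast, with Benjamini-Hochberg adjustment over 9813 probes. The script was tested on simulated data. Gene symbols came from the RefSeq table (ARS-UCD2.0) or the files.

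Named genes were the 12 largest differences in each direction, up to 8 opposite calls and 6 common rises in each direction, up to 3 members of each list with the smallest p, up to 4 markers per list, and 7 fixed interferon genes. Further list members were named after their values were seen. The members and lists were chosen with earlier results of these data known. Alternatives covered scaling, background correction, probe filters, array weights, array row, a replicate block and leaving out each array. Array intensities give no molecule counts, so precision is limited by 3 or 4 arrays per group. Promoter and protein sequences were not used here, and results of some genes are not reported here.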

Additional observations from a re-analysis of the deposited data

Results flagged for a closer look

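The responses to IFNT differed between granulocytes and BES, by the test of the difference itself in limma, at 3253 of 9813 probes. Over all 4712 genes, 1524 were called (32.3%). Of the 161 named genes 125 were called, but many were named for the size or p of this difference, so that share follows from the choice. The following were singled out because, beyond a called difference, the called responses had opposite signs in the cell types. With a rise in BES and a fall in granulocytes, the differences (log2) were −2.04 for EBD, −1.86 for PTPRE, −1.37 for DUSP6, −0.85 for CDKN2D, −0.74 for FOS, −0.68 for MAP3K2, −0.66 for LNX1, −0.65 for BIRC3 and −0.63 for IFNAR2. With a fall in BES and a rise in granulocytes, they were 0.45 for PLXNA3, 0.71 for PLPP7, 0.80 for PFKL, 1.03 for PCF11, 1.12 for MRGPRF, 1.30 for AMIGO2, 1.37 for DEXI and 2.35 for MYBL2.

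Single arrays stood apart from the other 3 of their group by Dixon's test at 19 of the 322 groups of 4 arrays examined, 8 with PBS and 11 with IFNT. Chance flags about 1 in 20 groups. Groups of 3, which all BES groups are, were not tested. Of these, 17 are given here. The levels that stood apart among granulocytes with PBS were PTPRE at 0.84 in replicate 4 (nearest 1.11), CLDN4 at −2.87 in replicate 1 (nearest −2.65), SESN2 at 5.91 in replicate 3 (nearest 6.08), AMIGO2 at −4.33 in replicate 1 (nearest −4.03), RFX5 at −1.29 in replicate 3 (nearest −1.14), BAG1 at −1.32 in replicate 4 (nearest −1.59) and RNF8 at 0.075 in replicate 3 (nearest 0.14). Among granulocytes with IFNT they were PSMD12 at 0.0012 in replicate 3 (nearest −0.071), LGMN at 3.27 in replicate 1 (nearest 3.15), GAPDH at 5.85 in replicate 2 (nearest 5.79), RPS27 at 0.043 in replicate 2 (nearest −0.015), CD247 at 3.73 in replicate 4 (nearest 3.64), S100A8 at 7.47 in replicate 3 (nearest 7.30), PFKL at 0.70 in replicate 3 (nearest 0.84), MRC1 at −2.26 in replicate 2 (nearest −3.10), PCF11 at −1.21 in replicate 1 (nearest −1.16) and ZNF503 at −2.90 in replicate 1 (nearest −3.13). No array held more than 4 of the 19.

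Probes outside the comparison also carried signal with IFNT where no PBS array was well above background, which does not mean no signal: 12 probes in BES and 36 in granulocytes were above background on every IFNT array and on no PBS array of that cell type. At 3 probes in BES and 9 in granulocytes it was the reverse, with every PBS array and no IFNT array above background. In BES, TNFSF13B, a B cell survival factor, rose to at least 2.62-fold higher and OAS2 to at least 2.25-fold higher. Their mean levels rose in granulocytes too, from −2.85 to 0.060 for TNFSF13B and from −0.29 to 2.23 for OAS2. In granulocytes, BCL2L14 rose to at least 7.06-fold higher and TRIM38 to at least 4.32-fold higher, and IFNB1, interferon beta itself, to at least 2.19-fold higher. TRIM38 was also above background on all 3 BES IFNT arrays and on no BES PBS array, with mean levels of −6.48 and −7.75.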

How the results depend on the processing

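The count of 3253 probes with a called difference (1865 lower, 1388 higher) ranged from 2753 to 3409 without 1 array at a time (1559 to 1982 lower, 1189 to 1427 higher). It was 2911 without the filter on dim probes, 3429 with array weights per cell type and 3070 with array row as a covariate. The row term rests on BES PBS replicate 3 alone, and leaving out that array gave the same 3070. A minimum size of 1 on the log2 scale left 397 probes, 96 lower and 301 higher, by its own construction. Calls of single responses moved more, and the cause was not tested. The 289 BES rises became 456 with array weights and 143 with array row. The 232 BES falls became 596 with array weights, 29 with array row, 141 with the 75th percentile taken over probes above background on all arrays, 114 without the dim filter, and 56 to 350 without 1 array at a time. Granulocyte rises (1776) became 955 and falls (2990) became 1260 with array row, which coincides with treatment on that slide. Of 125 named genes past the threshold, 114 stayed past it under every alternative that tested them and 11 lost it under at least 1. Of the 36 others, 14 passed under at least 1 alternative. None reversed. Over the named genes past the threshold, the size moved by over 1.5 times at 21 with normexp background correction and at 4 with quantile normalization. Replicate numbers were not taken to pair the samples in the main fit, and the labels do not say whether they do. Correlations of same-numbered deviations ran from −0.0236 to 0.0525 in BES. In granulocytes they were 0.144, 0.145, 0.256 and −0.075, and 3 of 4 numbers matched best with their own, so a pairing there remains possible. With a replicate block, 3322 probes were called (1876 lower, 1446 higher), and opposite calls went from 30 genes to 45, with 23 of the 30 kept. Group sizes of 3 and 4 arrays limit the precision of every value. XAF1, MX1 and IFIT3 with IFNT in granulocytes lay below the brightest signal of those arrays, which stood at 8.96 to 9.10. Their mean granulocyte PBS levels were 6.13, 4.99 and 4.94, and their BES responses 5.14, 6.87 and 5.02. Rises of that size in granulocytes would have passed the brightest signal and could not have been read. The part of this limit in the differences was not tested.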
